A study of Homo sapiens with 12 samples.

Results

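The 7 protein-coding genes GAS2L1, CIRBP, MIDN, PLPPR3, EEF1A1, CCN1 and DDAH1 lay at the 5 strongest genomic regions that were called as hnRNPK peaks in both libraries with CRLM1 overexpression and in none of the 4 control libraries. They were chosen by the measured peaks themselves: overlapping peaks of the 6 lists were merged into 15464 regions, of which 82 (0.53%) were shared by both CRLM1-OE lists and free of control peaks, and these 82 were ordered by the mean of their score ranks in the 2 CRLM1-OE lists. The genes whose body, or the 5 kb before its start, was touched at the 5 best-ranked regions were taken. They were 7 of 20033 protein-coding genes, among which 210 (1.05%) carried peaks in each CRLM1-OE list and in none of the controls. The choice was made by region, and PLPPR3 and DDAH1 were not among the 210, as each had a control peak outside its region. The ranks, the scores and the lack of a control peak inside the 5 regions are therefore descriptions and carry no test.

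To ask how the long noncoding RNA CRLM1 affects where hnRNPK sits on chromatin, hnRNPK chromatin immunoprecipitation and sequencing (ChIP-seq) was done in HCT116, a long-established line from a human colorectal carcinoma. All groups overexpressed hnRNPK, and they differed in the construct they carried: CRLM1 (CRLM1-OE), no insert (empty control) or an antisense sequence (antisense control). Each of the 3 groups had 2 biological replicates, and the 12 samples were 6 immunoprecipitated libraries and the input DNA of each. Per the study's methods, CRLM1 was delivered with a lentiviral vector followed by puromycin selection, and an hnRNPK-coding DNA fragment was placed in an expression plasmid. Whether the selected cells were 1 clone is not stated, and the controls, too, carried excess hnRNPK. Usable peaks numbered 4339 and 3163 in the CRLM1-OE lists, 1619 and 2607 in those of the empty control, and 2262 and 2224 in those of the antisense control. A list holds called peaks alone, with no read counts, so a gene without a peak in a list is one where no peak passed the caller, and the depth behind that is unknown. The longer CRLM1-OE lists leave more room for a call in those lists, and the part of list length in the loci described here was not tested.

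hnRNPK is a nuclear protein with KH domains that bind single strands rich in C, in RNA and in DNA. It acts in RNA processing and as a cofactor of transcription, and it is often raised in colorectal tumours. Formaldehyde, used here to fix the cells, crosslinks proteins to both DNA and RNA.

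To show what lay under the peaks, the middle 200 bases of the stretch shared by the best-ranked peaks of both CRLM1-OE lists are given for 3 of the 5 regions (GRCh38, plus strand). Capitals mark TCCC, a tetramer of the C-rich kind that KH domains bind, or GGGA, which is TCCC on the other strand. The stretches are those between MIDN and the main CIRBP transcript (chr19:1260340-1260539), in a PLPPR3 intron (chr19:816462-816661) and just inside CCN1 (chr1:85581082-85581281, an intron of its canonical transcript and exonic in other CCN1 transcripts with no annotated coding sequence there). No stretch of this length at the EEF1A1 start was free of untranslated exon, and none is shown.
MIDN/CIRBP: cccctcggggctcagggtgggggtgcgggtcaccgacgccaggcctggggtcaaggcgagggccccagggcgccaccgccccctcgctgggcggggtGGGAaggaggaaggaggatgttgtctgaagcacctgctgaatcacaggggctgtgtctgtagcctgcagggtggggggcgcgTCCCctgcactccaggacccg
PLPPR3: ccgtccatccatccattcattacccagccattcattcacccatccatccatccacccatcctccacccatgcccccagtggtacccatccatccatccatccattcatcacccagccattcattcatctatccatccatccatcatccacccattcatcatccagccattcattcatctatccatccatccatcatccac
CCN1: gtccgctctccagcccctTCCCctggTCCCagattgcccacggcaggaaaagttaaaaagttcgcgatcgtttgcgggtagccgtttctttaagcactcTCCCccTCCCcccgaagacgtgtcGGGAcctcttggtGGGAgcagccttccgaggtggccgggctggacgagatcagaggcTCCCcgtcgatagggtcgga
The windows look unlike each other. The CCN1 stretch held TCCC 5 times on the plus strand and 2 times on the minus strand, with the longer C-run CCCTCCC once. The MIDN/CIRBP stretch had the highest GC content of the 3 (72%) and held TCCC 1 time on each strand. The PLPPR3 stretch held no TCCC on either strand and was a tandem array built on CATC, which occurred 23 times in 200 bases, all on the plus strand.

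EEF1A1 encodes the translation elongation factor that carries aminoacyl-tRNA to the ribosome, and it is among the most highly transcribed genes of most cells. Its region (chr6:73520169-73521628, 1460 bp) lay over the start of the canonical transcript, with the midpoint 134 bp downstream of that start. The peak of CRLM1-OE replicate 1 scored 118.97 and ranked 89 of 4339, within the best 2.05% of its list. In CRLM1-OE replicate 2 the peak scored 301.63 and ranked 19 of 3163, within the best 0.601%. Both peaks covered the start site and shared 1178 bp, the whole of the replicate 1 peak. No peak of the empty or antisense controls touched the gene.

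EEF1A1 was also called past its other end. A further region of the same kind, at place 33 among the 82, lay in a long EEF1A1 transcript beyond the 3′ end of the canonical one. There, CRLM1-OE replicate 1 had a peak (chr6:73514190-73515403) with a score of 147.96 and rank 56, and its midpoint lay 954 bp past the canonical 3′ end. CRLM1-OE replicate 2 had an overlapping peak with a score of 65.89 and rank 889, and another peak still farther on with a score of 52.32 and rank 2538. The order of the 2 regions thus differed between the replicates: the 3′ peak scored above the start peak in replicate 1 and far below it in replicate 2. EEF1A1 has many near-identical retrocopies, to which reads could also align. None of the 49 EEF1A1 pseudogenes carried a peak in any list, and 4 of 1429 32-base words of the start region (0.28%) were found elsewhere in the genome. The words of the 3′ region are not given. Reads from a copy that were placed on EEF1A1 would leave no peak on the copy, so the part of the copies in these calls was not tested.

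CIRBP and MIDN stand in a row on chromosome 19 and share a region (chr19:1259020-1261603, 2584 bp). CIRBP encodes the cold-inducible RNA-binding protein, which binds messenger RNAs in cold and stress. MIDN encodes midnolin, which brings nuclear proteins to the proteasome. CRLM1-OE replicate 1 had a peak of 2041 bp with a score of 227.63 and rank 25, and CRLM1-OE replicate 2 had one of 2584 bp with a score of 149.78 and rank 73. The replicate 1 peak lay wholly within the replicate 2 peak. No control list had a peak on either gene.

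The place of that region depends on which transcript is taken. By the gene record, the midpoint lay 927 bp inside CIRBP, in an intron. The CIRBP record, however, begins 9948 bp before the start of its canonical transcript, and the region ended 7729 bp short of the latter. The same midpoint lay 1168 bp past the 3′ end of MIDN. The overlap with MIDN was 124 bp at its 3′ end and came from the replicate 2 peak alone. The region was therefore close to the end of MIDN and not to the main start of CIRBP.

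MIDN had a second region among the 82, at its own start and at place 49. CRLM1-OE replicate 2 scored 160.83 there (chr19:1247644-1250241, rank 67), and CRLM1-OE replicate 1 scored 55.28 (chr19:1248743-1250263, rank 2436). A peak of CRLM1-OE replicate 2 alone lay in the gene body with a score of 54.16 and rank 2117. MIDN and EEF1A1 were the only genes of the 104 protein-coding genes at the 82 regions that met the rule at more than 1 region, and each was called near both of its ends. In both genes the second region was strong in 1 replicate and weak in the other.

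GAS2L1 encodes a protein that links actin filaments to microtubules. Its region (chr22:29300958-29302572, 1615 bp) was the best-ranked of the 82. CRLM1-OE replicate 1 had a peak of 1461 bp with a score of 214.67 and rank 30, and CRLM1-OE replicate 2 had a peak of 1367 bp with a score of 164.93 and rank 61. These were the most alike of the paired ranks among the 5 regions, and the peaks shared 1213 bp (75.1% of the region). The control lists had no peak on GAS2L1. The region did not lie on the gene: it entered by the 5 kb upstream allowance, with its nearer edge 4046 bp before the gene record. It lay closer to another gene, beginning 437 bp past the canonical 3′ end of EWSR1, which encodes an RNA-binding protein of the FET family and is transcribed towards GAS2L1. The midpoint was 1244 bp past that end and the edge nearer to GAS2L1 was 4078 bp before its canonical start.

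PLPPR3 encodes a membrane protein related to the phospholipid phosphatases and known from neurons. Its region (chr19:814254-817979) was the widest of the 5 at 3726 bp and lay in an intron, with the midpoint 5839 bp after the gene's start. It was made of 2 peaks from each CRLM1-OE list. In replicate 1 the peaks scored 121.92 (rank 84, 493 bp) and 102.01 (rank 140, 849 bp). In replicate 2 they scored 316.29 (rank 17, 2113 bp) and 103.02 (rank 181, 1246 bp). The best-ranked peak of replicate 1 lay wholly inside the best-ranked peak of replicate 2, and the other replicate 1 peak overlapped both peaks of replicate 2. The bases under a peak of both lists came to 975 bp in 3 pieces, 26.2% of the region. PLPPR3 was one of the members with a control peak: antisense control replicate 1 had a peak elsewhere in its introns (chr19:820050-820748, score 57.98, rank 978 of 2262), 2071 bp from the region and 1556 bp after the start of the gene. The edge of the region was 1942 bp from the 3′ end of the neighbouring gene PTBP1, which encodes a pyrimidine-tract-binding hnRNP and runs towards PLPPR3 from the other strand.

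CCN1 encodes a secreted matrix protein that binds integrins and is rapidly induced by growth factors. The region (chr1:85580026-85582602, 2577 bp) covered its start, with the midpoint 553 bp downstream. CRLM1-OE replicate 1 had a narrow peak of 814 bp (chr1:85580775-85581588, score 110.95, rank 113) that began just inside the gene, and CRLM1-OE replicate 2 had one of 2577 bp with a score of 229.84 and rank 30. The narrow peak lay wholly inside the broad one and made up 31.6% of it. No control list had a peak on CCN1.

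DDAH1, which encodes an enzyme that breaks down methylated arginines and so relieves nitric oxide synthase, was a member through the same CCN1 region. The gene is read from the opposite strand, and the region lay 1663 bp before the start of its gene record but 114867 bp from the start of its canonical transcript. No CRLM1-OE peak lay on the body of DDAH1, which spans 259883 bp. A peak of antisense control replicate 2 did (chr1:85387456-85388180, score 64.04, rank 474 of 2224, in an intron). For DDAH1, then, the CRLM1-OE call stood at the start of its neighbour and the single call within the gene was a control call.

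Counted over the 7 genes, the 6 lists held 20 peaks, of which 18 were in the CRLM1-OE lists and 2 in the control lists. Controls had a peak on 2 of the 7 genes, PLPPR3 and DDAH1, beside 295 of the 505 protein-coding genes (58.4%) that carried peaks in each CRLM1-OE list; the choice used this absence, and nothing is read from the difference. Without antisense control replicate 1, or without antisense control replicate 2, the number of members with a control peak was 1. GAS2L1 and the MIDN/CIRBP region ranked better in CRLM1-OE replicate 1, and the other 3 regions ranked better in CRLM1-OE replicate 2.

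**Figure D1:**
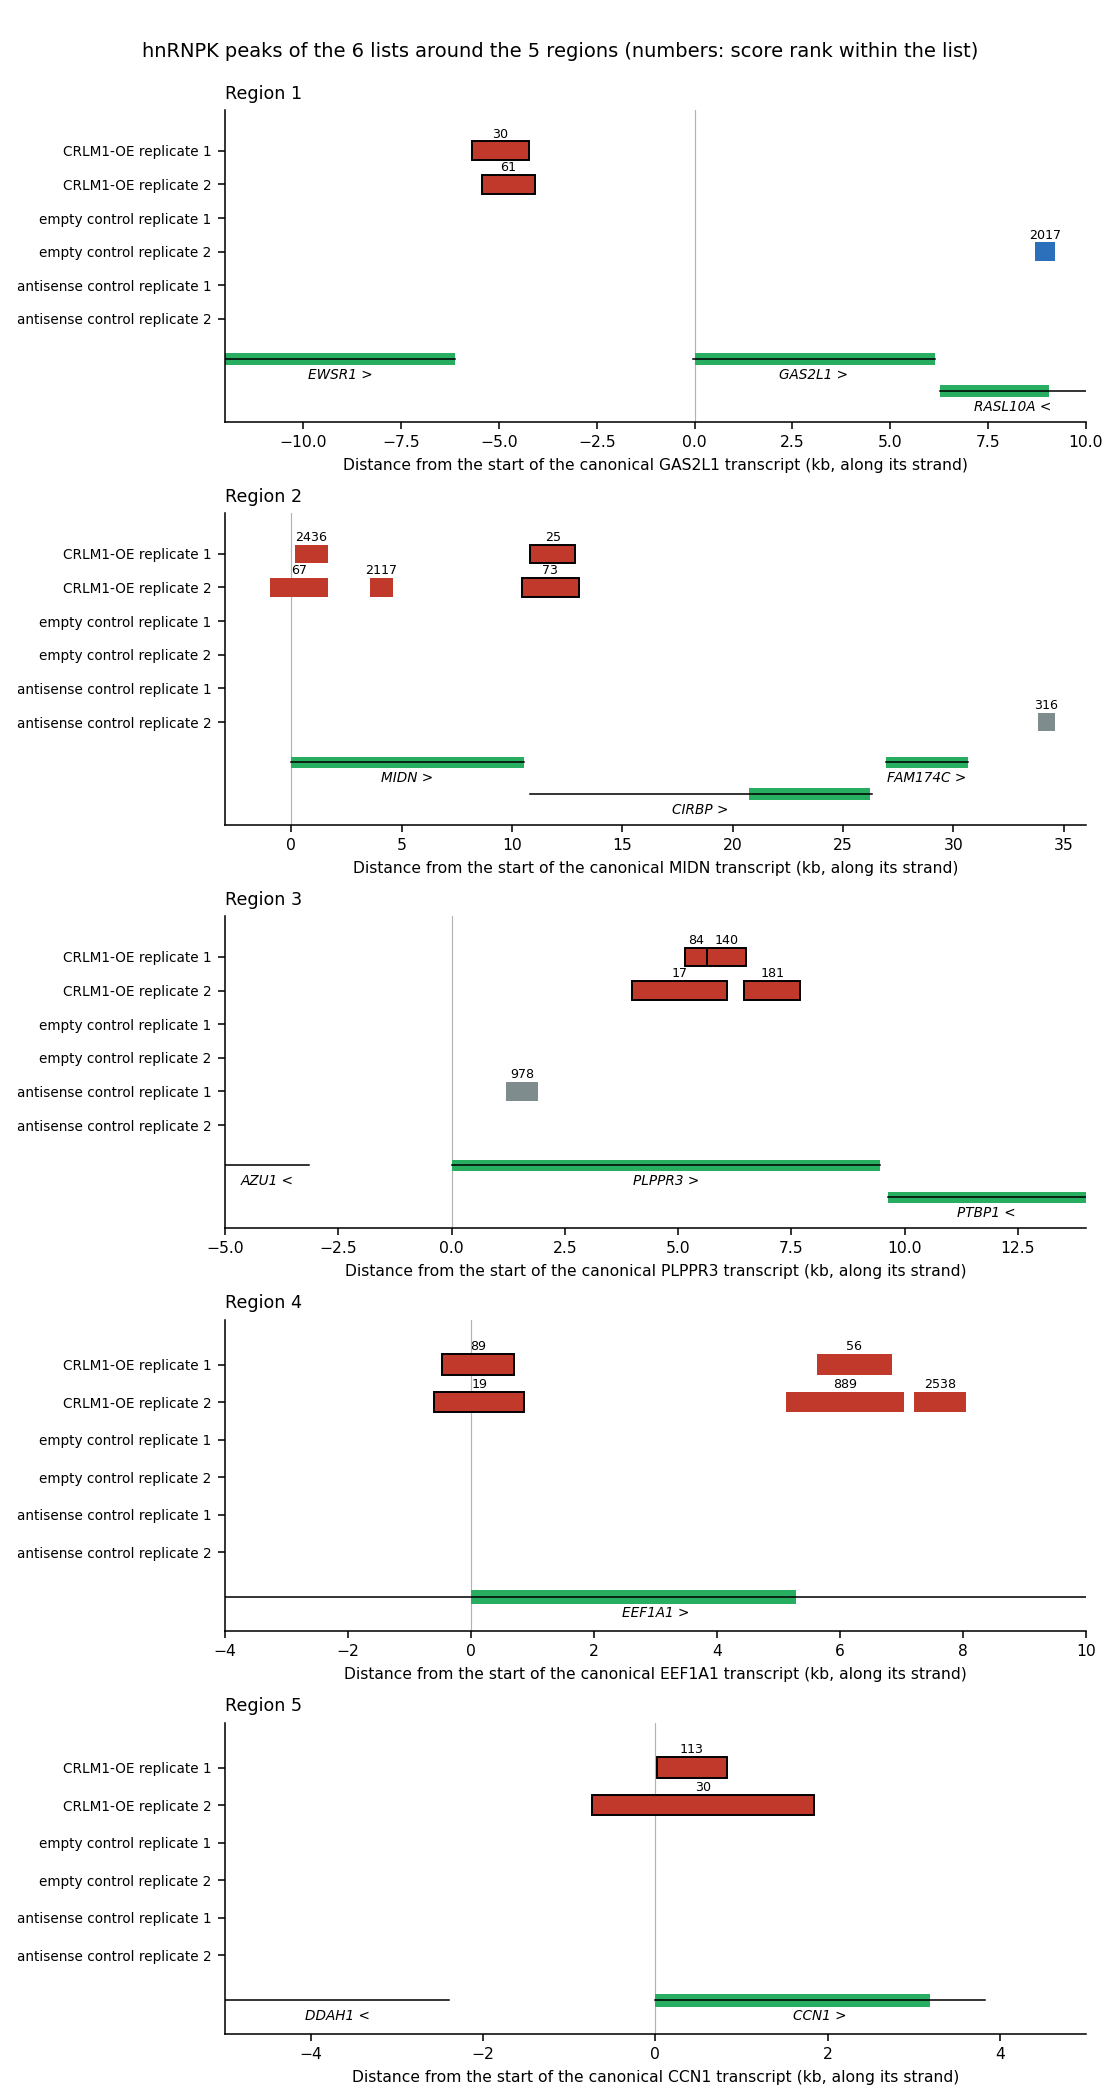
Peaks of the 6 lists (rows) around each of the 5 regions, by distance in kb from the start of the canonical transcript named on the axis, along its strand. Boxes are peaks with the score rank in their list, outlined where they form one of the 5 regions; green bars are canonical transcripts and thin lines gene records, with arrows for the direction of transcription along the axis. The GAS2L1 and MIDN/CIRBP boxes lie just past the 3′ ends of EWSR1 and MIDN, and the EEF1A1 and CCN1 boxes lie at the starts.

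The nearest control peak to each region was then located in every control list. For EEF1A1 it lay 110107 bp away in antisense control replicate 2 and 690510 bp or more away in the other 3 control lists. For the CCN1 region the nearest was at 191846 bp, the peak in DDAH1, and those of the other 3 lists lay between 277484 and 1637007 bp away. No control list had a peak within 100 kb of either of these start regions.

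The remaining regions had a control peak at 20793 bp or nearer. For GAS2L1 the nearest was at 12790 bp in empty control replicate 2, at rank 2017 of 2607, and the other lists had none nearer than 220638 bp. For the MIDN/CIRBP region it was at 20793 bp in antisense control replicate 2, at rank 316 of 2224. For PLPPR3 it was the peak at 2071 bp, followed by one of empty control replicate 2 at 16103 bp. Each nearest call was in a single list, and the lists that supplied them were empty control replicate 2 and the antisense control replicates.

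Over the 5 regions the median distance to the nearest control peak was 20793 bp, and 1 of 5 (20%) had one within 10 kb. The other 77 regions had a median of 57396 bp and 17 (22.1%) within 10 kb. The 7010 regions called in CRLM1-OE lists alone, in either list or both, had a median of 89904.5 bp and 746 (10.6%) within 10 kb. The median of 5 rested on single lists: it was 110107 bp without empty control replicate 2 and 121596 bp without antisense control replicate 2.

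**Figure D2:**
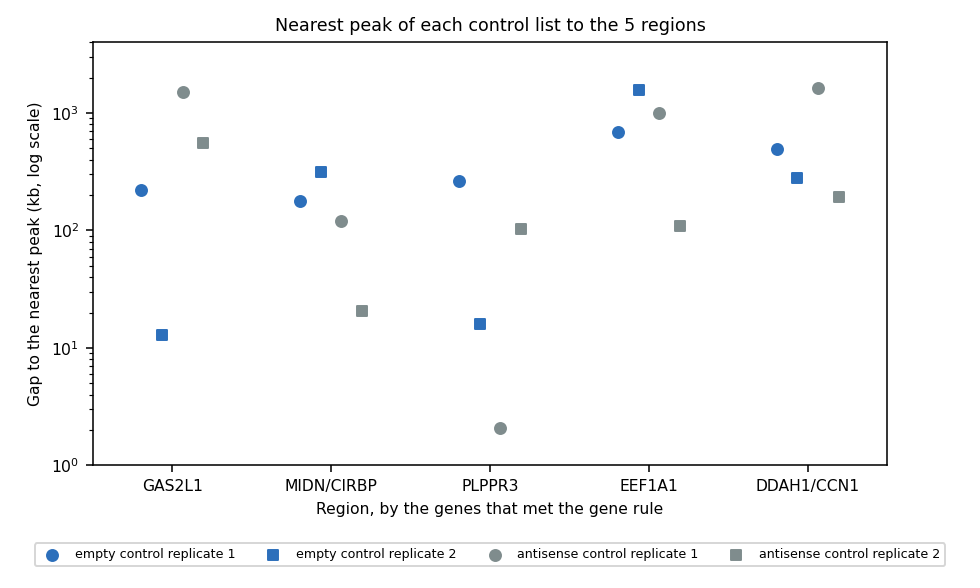
Gap in kb (log scale) between each of the 5 regions and the nearest peak of each of the 4 control lists; each point is 1 list. The PLPPR3 region has the nearest control peak, at 2071 bp, and no point for the EEF1A1 or CCN1 region lies under 100 kb.

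Beyond the regions themselves, peaks in the 250 kb on either side were counted, since these did not form those regions. Such peaks numbered 9 and 12 in the CRLM1-OE lists, 2 and 3 in those of the empty control, and 6 and 8 in those of the antisense control. Per 1000 peaks of the list this was 2.07 and 3.79 with CRLM1-OE, 1.24 and 1.15 with the empty control, and 2.65 and 3.60 with the antisense control. The groups overlapped: the mean was 2.93 ± 1.22 (SD, n = 2) with CRLM1-OE and 2.16 ± 1.18 (SD, n = 4) in the controls, a difference of 0.775, which is under the SD of either group. Most of these peaks surrounded the pair of chromosome 19 regions, whose surroundings overlap. The CRLM1-OE counts include the further MIDN and EEF1A1 peaks given above. Their ranks were 56 and 2436 in replicate 1, and 67, 889, 2117 and 2538 in replicate 2. The antisense control counts include the PLPPR3 peak of replicate 1 (rank 978) and the DDAH1 peak of replicate 2 (rank 474). The counts are thus not independent of the members, and the difference without such peaks was not tested.

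Position along genes was compared after the places of the 5 regions had been seen, so the following is a description. The 3 kb past the canonical 3′ end of a protein-coding gene were overlapped by 3 of the 5 regions (GAS2L1 past EWSR1, MIDN/CIRBP past MIDN, and PLPPR3 past PTBP1). The same held for 41 of the other 77 regions (53.2%), for 29 of the 85 regions shared by both CRLM1-OE lists that also had a control call (34.1%), and for 888 of all 15464 regions (5.74%). A canonical start was overlapped by the other 2 regions, EEF1A1 and CCN1, by 26 of the 77 (33.8%), by 23 of the 85 (27.1%) and by 706 of all regions (4.57%). Gene ends of either kind were thus common wherever both CRLM1-OE lists had a call, with or without a control call. Width goes with this: the median width was 2577 bp over the 5 regions, 1643 bp over the 77, 2009 bp over the 85 and 624 bp over all regions, and a wider region meets a gene end more readily. By midpoint, which does not depend on width in this way, 2 of the 5 lay in the 3 kb past a 3′ end and 2 within 1 kb of a start. The same held for 31 and 27 of the 77, for 26 and 19 of the 85, and for 4.78% and 6.26% of all regions.

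The base composition of the 5 regions was next set beside the rest. Their median GC content was 60.04%, near that of the other 77 regions (58.6%) and of 35116 RefSeq promoters (58.7%, GRCh38), and above the 41.7% of all merged regions. GC content was highest in the MIDN/CIRBP region (65.4%), followed by EEF1A1 (61.5%), PLPPR3 (60.04%), CCN1 (56.1%) and GAS2L1 (54.3%). CpG dinucleotides, as observed over expected, split the regions by place. They were most frequent at the start regions of EEF1A1 (0.875) and CCN1 (0.712), lower at MIDN/CIRBP (0.518) and PLPPR3 (0.404), and lowest past EWSR1 (0.218), where the value was close to the median of all regions (0.202).

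The C-rich tetramer TCCC was counted on both strands. It occurred 2.48 times per 100 bases in the MIDN/CIRBP region, above 96.1% of all merged regions, 1.71 times in EEF1A1, 1.44 in CCN1, 1.42 in GAS2L1 and 1.23 in PLPPR3. The median of the 5 was 1.44, against 1.79 in the other 77 regions, 0.885 in all regions and 1.33 in RefSeq promoters. Divided by the number expected from each region's own bases, the median of the 5 was 1.43. This was below the 1.69 of the other 77 regions and the 1.53 of all regions, and near the 1.38 of RefSeq promoters. The heptamer CCCTCCC, which holds TCCC within it, was found on either strand of all 5 regions, of 51 of the 77 (66.2%) and of 22.1% of all regions. In the 300 bases around the midpoint, which sets width aside, it was found in 2 of 5 (MIDN/CIRBP and CCN1), in 25.97% of the 77, in 12.3% of all regions and in 26.6% of promoters of the same length. A match is a description of the letters and not a binding site.

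**Figure D3:**
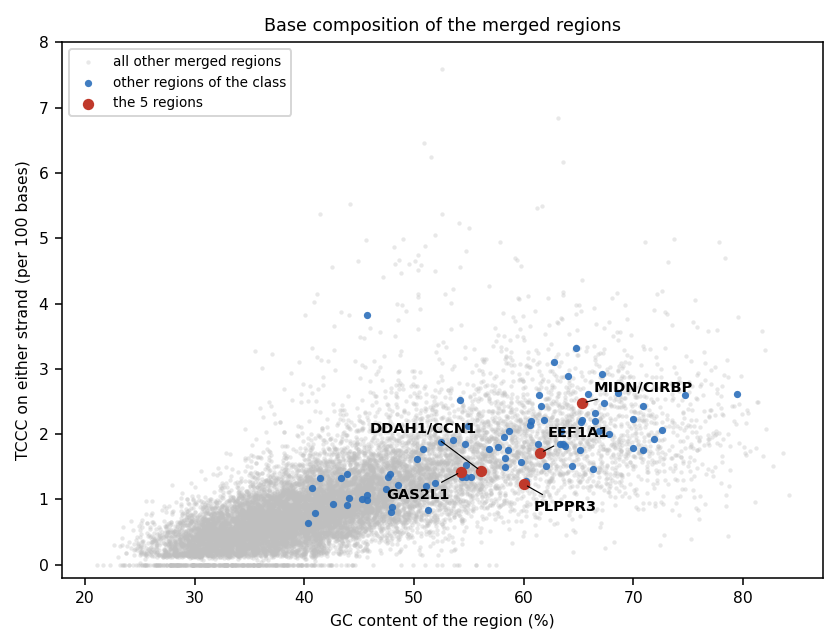
TCCC on either strand per 100 bases against GC content (%) for each merged region, with the 5 regions in red and the other 77 regions of the class in blue. The 5 regions lie between 54.3% and 65.4% GC, among the other 77 and to the right of most regions, and the MIDN/CIRBP region is the highest of the 5 in TCCC.

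The tandem array seen in the PLPPR3 stretch was then measured across the region, a count chosen after the sequence had been seen. CATC occurred 132 times on either strand in 3726 bp, or 3.54 per 100 bases, above 99.8% of all merged regions, whose median was 0.648. The other 4 regions had 0.479 to 1.18 per 100 bases. Of the 32-base words of the PLPPR3 region, 583 of 3695 (15.8%) were found elsewhere in the genome, compared with 2.75% for CCN1, 1.26% for GAS2L1, 0.28% for EEF1A1 and none for MIDN/CIRBP. The median was 0.339% over the other 77 regions and 14.7% over the 85 regions with a control call. The PLPPR3 value was near the latter median and within the range of the 77 (0 to 36.7%), and the part of repeated sequence in its calls was not tested. In the other 4 regions few exact 32-base words recurred, though 51 of the 2546 words at CCN1 (2.00%) occurred more than 100 times. Diverged copies of a sequence were not counted.

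As a measure that the choice had not used, peaks were sought on 22 relatives of the 7 genes. The relatives were the other GAS2 proteins, RBM3, the phospholipid phosphatases and their kin, the other elongation factors, the other CCN proteins and DDAH2. None of the 22 was called in both lists with CRLM1-OE, beside 2.52% of all protein-coding genes, and 6 of the 22 had a peak in any list, beside 28.2%, so both counts were near the background. GAS2 had a peak in CRLM1-OE replicate 2 (rank 2307), EEF1G in CRLM1-OE replicate 2 (rank 1570) and EEF2 in CRLM1-OE replicate 1 (rank 1082). PLPP2 had a peak in CRLM1-OE replicate 1 (rank 2424) and 2 in empty control replicate 2 (ranks 399 and 519), PLPP1 had one in antisense control replicate 2 (rank 344), and PLPPR2 one in antisense control replicate 1 (rank 2106). None of the 5 other CCN genes, DDAH2 or RBM3 had a peak. Most relatives with a peak were called in 1 list, and PLPP2 was called in 2.

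Set per 1000 peaks, relatives with a peak numbered 0.461 and 0.632 with CRLM1-OE, 0 and 0.384 with the empty control, and 0.442 and 0.450 with the antisense control. The means were 0.547 ± 0.121 (SD, n = 2) and 0.319 ± 0.215 (SD, n = 4), a difference of 0.228. The two-sided exact permutation test over the lists gave p = 0.133, which is the smallest p that 15 arrangements of 2 lists against 4 allow, so this design cannot reach 0.05. The difference rests on counts of 0 to 2 genes per list, and its direction turned, to -0.161, when the peak had to lie within 1 kb of the start of the gene record.

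Last, the edge of the choice was examined, with values that are those of the rule and carry no test. The mean ranks of the 5 regions were 45.5 for GAS2L1, 49 for MIDN/CIRBP, 50.5 for PLPPR3, 54 for EEF1A1 and 71.5 for CCN1/DDAH1. The next region, at P4HB and ARHGDIA on chromosome 17 (chr17:81861328-81870124, ranks 132 and 11), had the same mean rank of 71.5 as that of CCN1, and their order was set by chromosome name. P4HB encodes a protein disulfide isomerase. Next came TEX2 (74.5), SFXN5 (84), ISYNA1 (95.5) and TRIM41 (98.5).

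Regions as strong as the 5 were not rare among those with a control call. Of the 85 regions shared by both CRLM1-OE lists and at least 1 control list, 25 had a mean rank at or under 71.5. Among them were the regions of the transcription factor genes KLF6 (34.5, with rank 109 in empty control replicate 2) and ATF4 (37.5, with rank 196 in antisense control replicate 2), of the histone gene H3-3B (55.5) and of the pyruvate kinase gene PKM (63.5). Many of the 25 had no protein-coding gene by the gene rule. The strongest of these (chr3:93470206-93470958, mean rank 4) was called in every list. KLF6 and ATF4 were each held out of the choice by 1 control list. Leaving out 1 control list at a time showed the same. Without empty control replicate 1 all 7 genes were still at the 5 best-ranked regions. Without empty control replicate 2 or without antisense control replicate 1, 4 of the 7 genes were (GAS2L1, MIDN, CIRBP and PLPPR3), and without antisense control replicate 2, 5 were. With 1 CRLM1-OE list the choice had little in common with that from both: 2 of the 7 genes were at the 5 best-ranked regions without CRLM1-OE replicate 2, and none without CRLM1-OE replicate 1. GAS2L1, MIDN and CIRBP were the members that stayed under every control list left out and when a reciprocal overlap of 50% was required, where PLPPR3, CCN1 and DDAH1 dropped out.

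**Figure D4:**
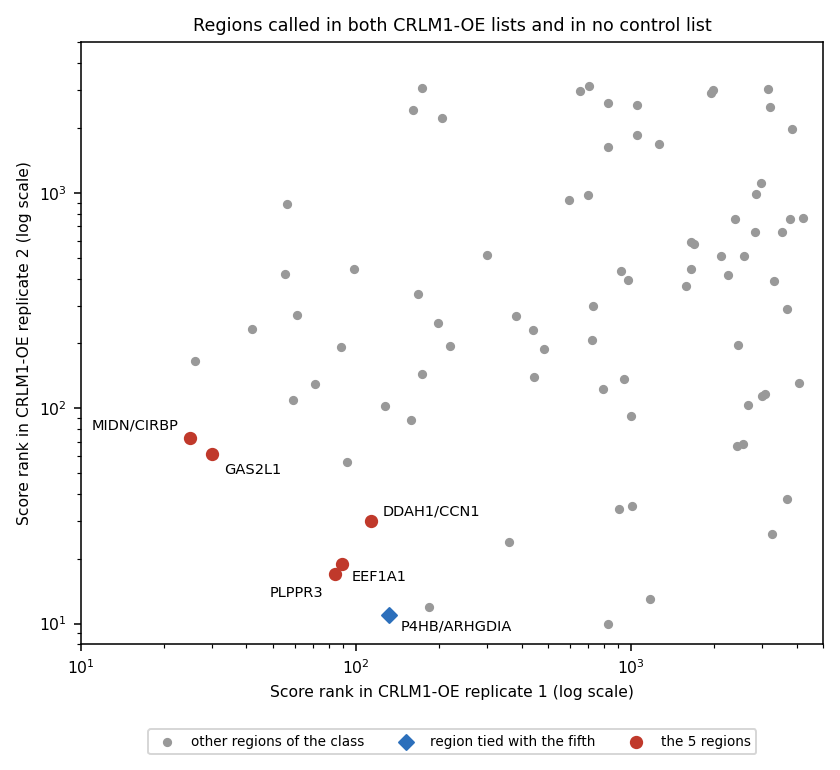
Score rank in CRLM1-OE replicate 2 against score rank in CRLM1-OE replicate 1, both on log scales, for the 82 regions shared by both CRLM1-OE lists and free of control peaks; 1 is the highest score of a list. The 5 regions (red) have mean ranks of 45.5 to 71.5, and the P4HB/ARHGDIA region (blue diamond) is tied with the fifth.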

How the data were processed

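The 12 samples were 6 hnRNPK immunoprecipitates and their inputs. The methods state that the authors used cutadapt for trimming, Bowtie2 for alignment to GRCh38, and MACS2 to call peaks against the matching input. By its name, each deposited list sets a single replicate against the input of the same group and number. The deposited lists give each peak a score, which is the authors' own value. The methods give a q-value cutoff for MACS2. No score was under 50 and its scale is not named in the lists, so how the score relates to that cutoff is not known, and scores served only as ranks within a list. Sequencing depth is unknown. The authors annotated peaks on the gene body or 5 kb upstream, and the same rule was used here with GENCODE release 44.

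Of 16768 deposited peaks, 16214 on chromosomes 1 to 22, X and Y were used, and 0 rows were repeated. Peaks overlapping by at least 1 bp were merged, and a region took its best rank in each list. Starts were set to count from 1. The canonical transcript is the one GENCODE tags so. The members, relatives and lists of comparison were chosen with earlier results of these data known, and the 3′ ends, CATC and repeated words were added after the regions had been seen. Named genes were the members, their neighbours, the genes of the next 5 regions, and relatives. KLF6, ATF4, H3-3B and PKM were named after their values were seen. TCCC was searched on both strands, as were CCCTCCC, which contains it, and the repeat unit CATC. A planned share of soft-masked bases was not computed, because the genome copy used has no lower-case letters. Group means over lists of relatives with a peak per 1000 peaks were compared with a two-sided exact permutation test. Those of surrounding peaks were not tested. Replicates are called biological in the series' design. Alternatives were peaks above the median score, the 1000 best peaks of each list, reciprocal overlap, all sequences, other gene rules, other ranks and each list left out in turn. The code was tested on simulated lists and used Python 3.11.15, pandas 2.3.3, numpy 2.4.6, pysam 0.24.0 and samtools 1.23.1. Columns left unused numbered 0. The sequence of the GAS2L1 region is not reported here.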

Additional observations from a re-analysis of the deposited data

How the results depend on the processing

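The 82 regions became 47 with a reciprocal overlap of 50%. They became 51 with the peaks above the median score of each list and 44 with the 1000 highest-scoring peaks. A reciprocal overlap also drops overlaps with control peaks. KLF6 and H3-3B, held out by control peaks under the main rule, were then among the 5 best-ranked regions. With each list left out in turn the count ran from 84 to 4109, the high values arising when a single CRLM1-OE list defined the regions (2991 without CRLM1-OE replicate 1 and 4109 without CRLM1-OE replicate 2). The 7 members at the 5 best-ranked regions became 4 with reciprocal overlap and 0 to 7 with each list left out. Within 1 kb of a start, 2 members met the gene rule, CCN1 and CIRBP by the gene record, and EEF1A1 and CCN1 by the canonical transcript, a setting chosen after seeing the data. Ranking by the worse rank or by rank over list length gave 5. CCN1 and DDAH1 dropped out under both, their region falling to place 7 and place 6. Members with a control peak fell from 2 to 0 within 1 kb of the gene record start, and were 1 to 2 with a list left out. The median distance to a control peak was 191846 bp with the peaks above the median score, for which fewer control peaks are available, and 20793 to 121596 bp with a control list left out.

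The difference in relatives with a peak per 1000 peaks reversed to -0.161 within 1 kb of the gene record start and to -0.4995 with the 1000 highest-scoring peaks, and the cause was not tested. With a list left out it was 0.122 to 0.313. With the replicate number as a block, the exact permutation over 9 arrangements gave the same difference of 0.228 with p = 0.222. The labels share replicate numbers between groups but do not say that a number marks a shared batch. Median GC content and TCCC density of the 5 regions moved by less than their spread under both alternatives. The difference in surrounding peaks stayed positive, at 0.498 to 1.49, but no setting set aside all the further MIDN and EEF1A1 peaks. With no read counts, a weak peak under the calling threshold cannot be told from no signal.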
